A study of Mus musculus with 10 samples.

Results

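The early stage of streptozotocin (STZ) diabetes in sorted mouse retinal microglia is described here as a comparison of 3 libraries taken 4 weeks into diabetes (4wk STZ) with 3 littermate Control libraries, 6 of the 10 libraries of the series. The genes are those of a whole-genome count table that passed a filter on low counts, 18957 of 55487. All animals, Controls included, were Cx3cr1GFP/+ mice, in which a copy of the fractalkine receptor gene carries a green fluorescent protein (GFP) reporter. The 4wk STZ and 8wk STZ animals had been diabetic for 4 and 8 weeks, and 4 libraries at 8 weeks served to follow each early difference to the later time. Cells of the left and right retina of each mouse went into 1 library after papain digestion and a sort of living GFP-positive cells, per the labels' protocols, so a library stands for 1 animal. The gate takes any living cell with the reporter, other myeloid cells included. The sources used here do not give the dose of STZ, blood glucose, age or sex of the animals.

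STZ enters pancreatic beta cells, the source of insulin, and kills them, which raises blood glucose. Microglia are the resident macrophages of the retina. At rest they carry a signature of surface receptors such as Tmem119, P2ry12 and Fcrls that depends on the cytokine TGF-beta. On damage they can lower that signature, raise receptors for debris and lipid such as Clec7a and Axl, take up dying photoreceptors and release chemokines.

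The 6 libraries held 33266838 to 54312248 reads in genes, and values are given as CPM, read counts scaled to a common library total. Control replicate 3 and 4wk STZ replicate 3 lay apart from the other libraries on the first 2 principal components. The number of near-threshold genes and some list medians below are therefore also given without them, and the other counts are not. P2ry12 stood at 6244 ± 1068 CPM (SD, n = 3) in Control and 6104 ± 742 CPM (n = 3) at 4wk STZ, and the 27 homeostatic microglial genes took 7.29% to 9.05% of the reads of each of the 6 libraries. Markers of other blood and border cells summed to less than the homeostatic genes, which summed to 74029 to 95610 CPM in the 6 libraries. Over the whole lists, the 16 monocyte and neutrophil markers summed to 344 to 469 CPM in Control and 260 to 370.1 CPM at 4wk STZ. The 14 T and NK cell markers summed to 18.7 to 45.5 CPM in Control and 20.8 to 29.4 CPM at 4wk STZ, with Ncr1 at 0 in all 6 libraries. The 12 border macrophage markers summed to 362 to 674 CPM in Control and 299 to 600.4 CPM at 4wk STZ. The 10 B cell markers summed to 777 to 951 CPM and 895 to 1020.1 CPM, most of it Ighm, with Pax5 and Fcmr at 0. The 10 dendritic cell markers summed to 1469.6 to 1812 CPM in Control and 1651 to 2045 CPM at 4wk STZ. That list shares Siglech with the homeostatic genes. Of the hemoglobin genes, Hba-a1 had 846, 428 and 0 reads in the Control libraries and 0, 34 and 0 at 4wk STZ. In bulk RNA of this kind, fewer cells of a type and less RNA per cell cannot be told apart.

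No gene passed the test at 4 weeks. In edgeR's quasi-likelihood test with Benjamini-Hochberg adjustment over all 18957 genes, 0 (0%) had an adjusted p below 0.05, and the smallest adjusted p was 0.196. At an unadjusted p below 0.05 there were 907 genes (4.78%) with a higher level at 4wk STZ and 942 (4.97%) with a lower level, 1849 in all (9.75%). Other tools set the line elsewhere: limma-voom called 0 genes, DESeq2's Wald test 299 and edgeR's likelihood ratio test 244. The authors' deposited table lists 116 genes with a false discovery rate (FDR) below 0.05, of which 54 were higher and 62 lower. At 8 weeks the quasi-likelihood test called 449 genes (2.37%) against the same Control libraries.

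Genes just under the threshold, here those with an unadjusted p below 0.01, numbered 518 (2.73% of all tested). Of these, 242 (1.28%) stood higher at 4wk STZ and 276 (1.46%) lower. None of them is a called change, and the values below are differences between group means with that limit. The number depends on the libraries in the fit: with only the 6 libraries of both groups it was 277, and without Control replicate 3 and 4wk STZ replicate 3 it was 502, of which 224 were among the 518. Of all tested genes 2335 (12.3%) had Control and 4wk STZ libraries that did not overlap, 1150 higher (6.07%) and 1185 lower (6.25%). Among the 518 these were 497, which were chosen on the same libraries, so nothing is read from that count. The genes named below for the smallest p were admitted only if their libraries did not overlap. A lack of overlap therefore describes such a gene and adds no support to its difference. The plot of all tested genes shows that the genes past the line fall into a tall narrow cloud of well-counted genes with small differences and scattered arms of rarely counted genes with large ones: 378 of the 518 had a mean log2 CPM of at least 2, and 213 differed at least 2-fold.

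**Figure D1:**
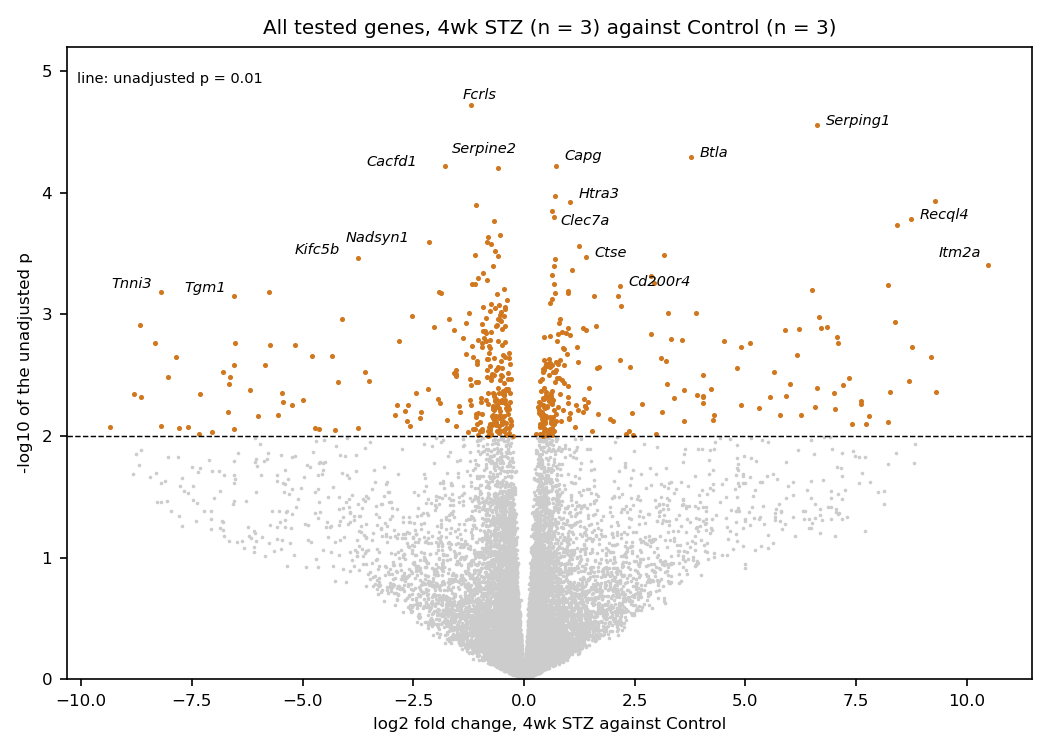
Each point is 1 of the 18957 tested genes, with the log2 fold change of 4wk STZ against Control on the x axis and -log10 of the unadjusted p of edgeR's quasi-likelihood test on the y axis. The 518 genes with an unadjusted p below 0.01 are in orange, the dashed line marks that p, and Fcrls (lower) and Serping1 (higher) stand at the top.

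The gene with the smallest p was Fcrls, which encodes an Fc receptor-like surface protein used as a marker of microglia (ENSMUSG00000015852, chr3:87250758-87263738, minus strand, GRCm38). It stood at 685, 599 and 761 CPM in the Control libraries and at 307, 301 and 291 CPM at 4wk STZ. The groups did not overlap, and the spread among the diabetic libraries (SD 7.99 CPM) was far smaller than the gap of the means, 682 against 299.6 CPM. The log2 difference was -1.19 with a standard error (SE) of 0.164 and an adjusted p of 0.196. With any library left out it lay between -1.27 and -1.08. The authors' deposited table gives Fcrls a log2 fold change of -1.18 with an FDR of 1.68e-08. At 8wk STZ Fcrls was called lower than Control (log2 -0.85, adjusted p = 0.0175 in edgeR's quasi-likelihood test).

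The promoters of 3 of the genes that stood out follow, since they belong to different programmes: Fcrls, a resting-state gene that was lower, Capg, an actin-capping gene that was higher, and Rom1, a rod photoreceptor gene that was lower. They are RefSeq sequences of GRCm38.p6, from 250 bases before the start listed by RefSeq to 50 bases after it, read 5′ to 3′ on the gene's strand. For Rom1 that start is the start of the gene span given in this report. For Fcrls and Capg it lies inside the span, so those windows are not upstream of the whole gene. Fcrls lies at chr3:87263475-87263774 (minus strand), Capg at chr6:72549397-72549696 (plus strand) and Rom1 at chr19:8929307-8929606 (minus strand).
Fcrls: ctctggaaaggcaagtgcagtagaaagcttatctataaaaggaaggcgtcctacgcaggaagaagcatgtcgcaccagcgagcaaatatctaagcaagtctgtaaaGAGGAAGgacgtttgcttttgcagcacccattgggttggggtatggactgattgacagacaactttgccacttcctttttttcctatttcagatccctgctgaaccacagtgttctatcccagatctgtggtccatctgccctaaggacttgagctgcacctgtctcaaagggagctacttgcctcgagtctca
Capg: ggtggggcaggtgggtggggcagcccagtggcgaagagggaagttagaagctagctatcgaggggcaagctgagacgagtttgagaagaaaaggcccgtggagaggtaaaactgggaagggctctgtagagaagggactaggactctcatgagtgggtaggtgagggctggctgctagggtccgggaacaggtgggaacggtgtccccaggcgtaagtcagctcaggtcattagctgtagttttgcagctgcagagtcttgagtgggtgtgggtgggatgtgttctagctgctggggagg
Rom1: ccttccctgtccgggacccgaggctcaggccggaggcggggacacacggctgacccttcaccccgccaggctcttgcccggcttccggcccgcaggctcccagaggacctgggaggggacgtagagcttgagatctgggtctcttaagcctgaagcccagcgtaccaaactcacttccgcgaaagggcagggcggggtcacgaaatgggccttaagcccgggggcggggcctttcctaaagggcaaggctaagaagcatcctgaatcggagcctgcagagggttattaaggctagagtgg
Capitals mark the letters GAGGAAG, a form of the core bound by PU.1, the master transcription factor of macrophages. They were searched on both strands and found in Fcrls, 144 bases before the RefSeq start, and in neither of the other promoters. This position lies inside the Fcrls gene span given above. Of 32851 RefSeq promoters of the same length, 13.6% hold them. TAATCC, a core of the photoreceptor factor CRX, was found in none of the 3, against 7.06% of all promoters. A match describes letters in this window and does not show binding.

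Among the other resting-state genes the differences were small. Of 27 homeostatic genes tested, 0 were higher and 6 lower at an unadjusted p below 0.05. The background was 4.78% and 4.97% of all genes, here and for every list below. Of the 27 homeostatic genes, 20 had a log2 fold change below 0. The list's median was -0.11, against -0.004 over all tested genes. Tmem119, a surface marker of microglia, stood at 4281, 4913 and 4589 CPM in Control and at 4094, 3369.9 and 3827 CPM at 4wk STZ. Every diabetic library lay below every Control library, but the lowest Control and the highest diabetic library differed little, and the log2 difference was -0.29 (SE 0.0889, adjusted p = 0.342). Csf1r, the receptor for the survival factor CSF1, had a log2 difference of -0.19 (adjusted p = 0.423). Entpd1, which breaks down extracellular ATP, had -0.20. The reporter's own gene, Cx3cr1, stood at 3861 ± 248 and 3573 ± 173 CPM (log2 -0.11, adjusted p = 0.767). At 8 weeks Tmem119, Csf1r and Entpd1 were each called lower than Control, with log2 differences of -0.44, -0.47 and -0.40. Of the 8 tested Fc receptors, 0 were higher and 2 lower at an unadjusted p below 0.05, Fcrls and Fcgr1, the high-affinity receptor for IgG. Fcgr1 stood at 491, 504 and 472 CPM in Control and at 438, 370.3 and 392 CPM at 4wk STZ, without overlap (log2 -0.29, adjusted p = 0.342). Its 8wk STZ level of 459 ± 28.8 CPM (n = 4) lay 0.09 below Control on the log2 scale.

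Genes of the disease-associated state, which microglia take on around damage, were split. Of 24 tested, 5 were higher and 3 lower at an unadjusted p below 0.05 (4.78% and 4.97% over all genes), and the median was -0.11. Clec7a, the receptor dectin-1, stood at 304, 249 and 312 CPM in Control and at 422, 459 and 456 CPM at 4wk STZ. The lowest diabetic library was above the highest Control library, with a log2 difference of 0.63 (SE 0.11, adjusted p = 0.232). Clec7a was called higher at 8 weeks (log2 0.48, adjusted p = 0.0382). Lpl, lipoprotein lipase, stood at 57.7, 56.5 and 71.9 CPM in Control and at 76.2, 109 and 103 CPM at 4wk STZ (log2 0.63, adjusted p = 0.315). Axl, a receptor for dead cells, stood at 293 ± 67.4 CPM in Control and 448 ± 39.9 CPM at 4wk STZ, again without overlap (log2 0.61, adjusted p = 0.378). On the lower side was Cd68, a lysosomal glycoprotein of phagocytes, with 1504, 1793 and 1902 CPM in Control and 1356, 1142 and 1193 CPM at 4wk STZ. Its log2 difference was -0.49 (SE 0.12, adjusted p = 0.253), and it stayed at that level at 8wk STZ, with a mean of 1284 CPM. Csf1, a ligand of Csf1r, had a log2 difference of -1.07 that rested on Control replicate 2 (45.6 CPM, against 12.8 and 25.8 CPM in the other Control libraries) and was -0.54 without it. Trem2, Apoe and Itgax, other genes of this state, had log2 differences of -0.21, 0.19 and -0.13.

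Of the cytokines and chemokines, Ccl6 and Ccl4 were the higher members with an unadjusted p below 0.05. Ccl6 stood at 409, 466 and 423 CPM in Control and 485, 552 and 594 CPM at 4wk STZ (log2 0.33, adjusted p = 0.37), and at 8wk STZ it was back at 419.8 ± 39.8 CPM. Ccl4, which attracts other leukocytes, stood at 51.4 ± 11.3 and 80.2 ± 10.6 CPM (log2 0.64, adjusted p = 0.361) and at 85.7 ± 18.4 CPM at 8wk STZ. Ccrl2, an atypical chemokine receptor that binds chemerin, was lower, at 48.8 ± 3.70 CPM in Control and 32.9 ± 7.06 CPM at 4wk STZ (log2 -0.57, adjusted p = 0.318). Over the 23 tested cytokines and chemokines 2 were higher and 2 lower at an unadjusted p below 0.05. The mean levels of Il1b (2.49 and 5.04 CPM) and Tnf (3.15 and 6.69 CPM) in Control and 4wk STZ had libraries that overlapped.

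**Figure D2:**
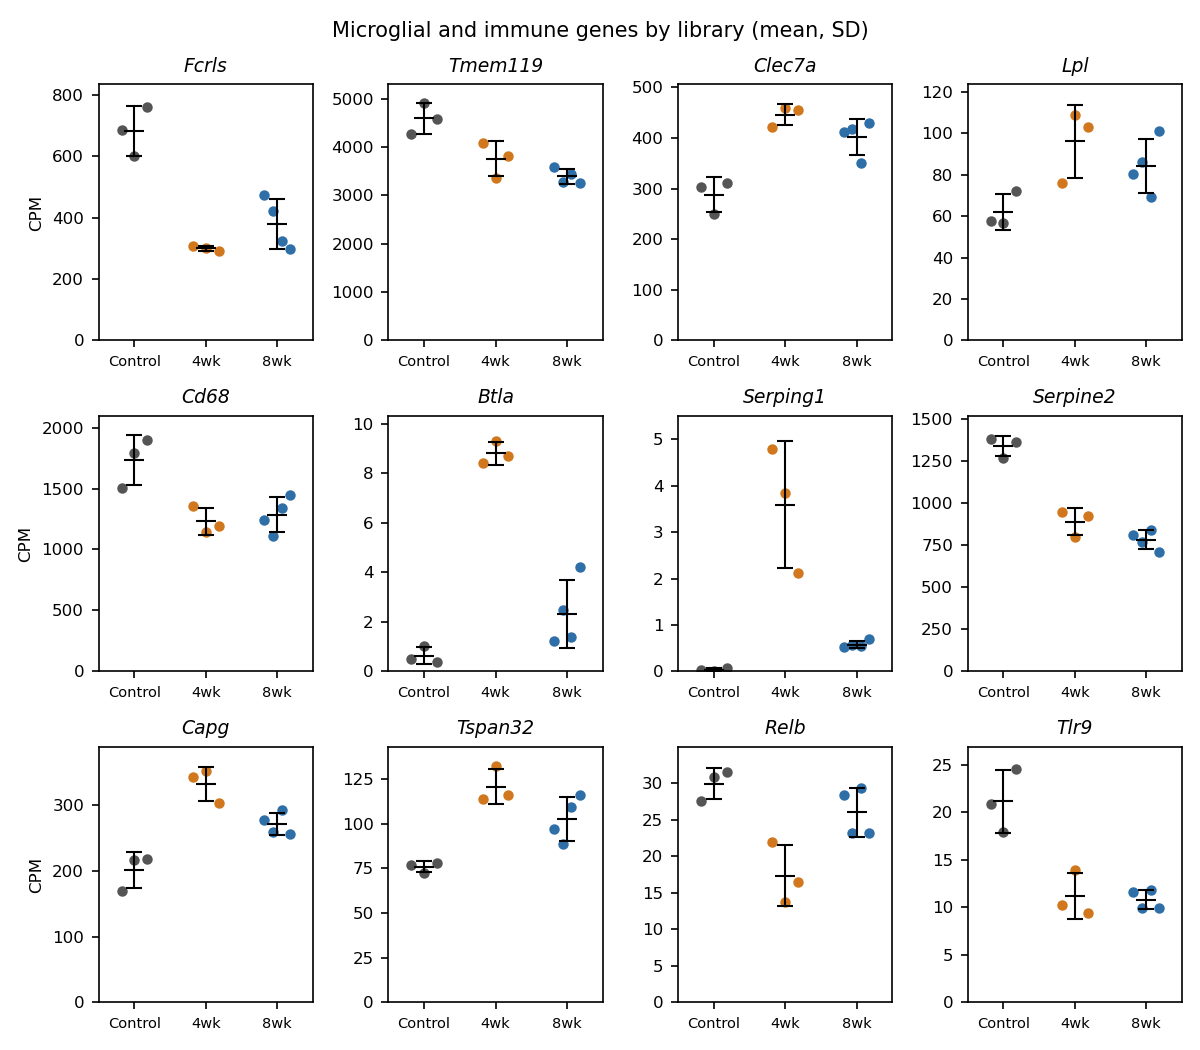
CPM (y axis, from 0) of 12 microglial and immune genes in each library, with the mean and SD of Control (n = 3), 4wk STZ (n = 3) and 8wk STZ (n = 4). Fcrls at 4wk STZ lies between 291 and 307 CPM, below every Control library, while Clec7a at 4wk STZ lies between 422 and 459 CPM, above every Control library.

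The list of inhibitory immune receptors and members of their families included Btla and Cd200r4, both rarely counted. Membership of the list does not mean that each member inhibits. Btla, an inhibitory receptor of the immunoglobulin family best known on lymphocytes (ENSMUSG00000052013, chr16:45224315-45257670, plus strand, GRCm38), stood at 0.497, 1.04 and 0.389 CPM in Control and at 8.41, 9.30 and 8.71 CPM at 4wk STZ. No library came near the other group. The reads numbered 89 in the 3 Control libraries and 1134 in the 3 diabetic libraries, a ratio of 14.1 (95% counting interval 11.3 to 17.7), and the log2 difference was 3.78 (SE 0.584, adjusted p = 0.196). At 8wk STZ Btla stood at 1.24, 2.49, 1.39 and 4.20 CPM, between the levels of the other groups. B cells and T cells also make Btla. Of the B cell markers, Cd79a had 16 reads in Control and 118 at 4wk STZ and Cd79b stood at 43.7 ± 2.76 and 51.3 ± 9.58 CPM. Ms4a1 had 2 and 0 reads, and Ighm and Cd22 had log2 differences of 0.15 and -0.03. Of the 6 tested T and NK cell markers 3 had a log2 fold change above 0 and 3 below, with a median of 0.05. The part of B cells and T cells in the Btla difference was not tested. Cd200r4, a member of the CD200 receptor family whose close paralogs can share reads, stood at 1.36, 1.69 and 0.564 CPM in Control and 6.19, 5.84 and 4.20 CPM at 4wk STZ (log2 2.17, adjusted p = 0.241), and was called higher at 8 weeks (log2 2.26, adjusted p = 0.0246). Siglece and Sirpa, which recognise sialic acid and the don't-eat-me signal CD47, were slightly lower, with log2 differences of -0.36 and -0.29. In this whole list of 26 genes, 2 were higher and 3 lower at an unadjusted p below 0.05.

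Complement held 1 extreme difference. Serping1, the C1 inhibitor that blocks the first step of the classical pathway (ENSMUSG00000023224, chr2:84765387-84775444, minus strand, GRCm38), stood at 0.0216, 0 and 0.0779 CPM in Control and at 4.80, 3.85 and 2.11 CPM at 4wk STZ. It was close to undetected in all 3 Control libraries, with 5 reads in all against 485 at 4wk STZ, a ratio of 107 (95% counting interval 45.6 to 332). The log2 difference was 6.62 (SE 0.954, adjusted p = 0.196). The 8wk STZ libraries held 0.524 to 0.688 CPM, called higher than Control (log2 3.99, adjusted p = 0.0382) with a difference from 4wk STZ that was not called (log2 -2.63, adjusted p = 0.112). C1qa and C1qc, chains of the recognition molecule that Serping1 acts beside and very abundant here, stood at 3675 ± 225 and 4944 ± 351 CPM in Control and at 3115 ± 227 and 4037 ± 497 CPM at 4wk STZ, log2 differences of -0.24 and -0.29. The remaining chain of that molecule, C1qb, had a log2 difference of -0.07. Cd59a, an inhibitor of the membrane attack complex, stood at 4.50, 1.89 and 5.70 CPM in Control and at 4.96, 7.36 and 15.2 CPM at 4wk STZ, with groups that overlapped (log2 1.18, adjusted p = 0.476, and log2 0.61 without 4wk STZ replicate 3). Among 17 tested complement genes 2 were higher and 2 lower at an unadjusted p below 0.05 (4.78% and 4.97% over all genes).

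Of 32 genes of the Toll-like receptors and NF-kB pathway, 3 were higher and 5 lower at an unadjusted p below 0.05 (4.78% and 4.97% over all genes). The list's median was -0.06. Tlr9, the endosomal receptor for unmethylated DNA, stood at 20.9, 17.9 and 24.6 CPM in Control and at 10.2, 13.9 and 9.39 CPM at 4wk STZ. The groups did not overlap (log2 -0.92, adjusted p = 0.252), and at 8 weeks Tlr9 was called lower (log2 -0.97, adjusted p = 0.031). Tlr7, the receptor for single-stranded RNA, stood at 108 ± 7.31 and 82.5 ± 6.16 CPM (log2 -0.39, adjusted p = 0.322). Relb and Nfkb2, subunits of the noncanonical NF-kB dimer, were both lower: Relb stood at 27.5, 30.8 and 31.5 CPM in Control and 21.9, 13.7 and 16.4 CPM at 4wk STZ, and Nfkb2 at 37.6, 38.3 and 37.8 CPM and 26.0, 23.6 and 27.8 CPM. Their log2 differences were -0.79 and -0.56, with adjusted p-values of 0.273 and 0.329. At 8wk STZ Relb had a mean of 26.0 CPM, 0.21 below Control on the log2 scale. Of the inhibitors of NF-kB, Nfkbia was lower (log2 -0.34) and Nfkbid, a nuclear member of the family, was higher, at 2.73 ± 1.47 and 6.99 ± 1.12 CPM (log2 1.35, adjusted p = 0.316). Nek7, a kinase that the NLRP3 inflammasome needs, stood at 219, 205 and 197 CPM in Control and at 257 ± 9.40 CPM at 4wk STZ (log2 0.31), and was the single one of 14 inflammasome genes with an unadjusted p below 0.05.

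Of 20 MHC class I pathway genes 1 was higher and 4 lower at an unadjusted p below 0.05 (4.78% and 4.97% over all genes). Tap1, which pumps peptides into the endoplasmic reticulum, stood at 80.6, 117 and 82.8 CPM in Control and 71.7, 68.9 and 54.8 CPM at 4wk STZ (log2 -0.52, adjusted p = 0.361, and log2 -0.33 without Control replicate 2). H2-T22, a nonclassical class I gene, stood at 47.1 ± 1.98 and 63.9 ± 12.6 CPM (log2 0.44, adjusted p = 0.426). Both lay within 0.25 of Control at 8wk STZ. Of 13 class II genes 1 was higher and 0 lower, with a median of 0.24 that became -0.04 without Control replicate 2 and -0.03 without 4wk STZ replicate 2. The 30 type I interferon genes had a median of -0.21 with 0 higher and 1 lower, Oas3 (10.2 ± 2.48 and 5.41 ± 1.95 CPM), and this median turned to 0.17 without Control replicate 2, the library with the highest summed level of the list (2590.2 CPM, against 1256 and 1427 CPM in the other Control libraries).

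Cytoskeletal and surface genes were among those nearest the threshold. Capg, which caps actin filaments in motile macrophages (ENSMUSG00000056737, chr6:72544391-72562983, plus strand, GRCm38), stood at 169.9, 217 and 218 CPM in Control and at 342, 351 and 303 CPM at 4wk STZ. All 3 diabetic libraries lay well above the Control libraries, with a log2 difference of 0.72 (SE 0.114, adjusted p = 0.196), and at 8wk STZ the mean of 271 CPM lay between the 2 levels. Tpm4, a tropomyosin that stabilises actin filaments, stood at 64.4 ± 8.82 and 100.1 ± 2.64 CPM (log2 0.64, adjusted p = 0.241). Tspan32, a tetraspanin of blood cells, stood at 77.1, 72.4 and 78.1 CPM in Control and at 114, 132 and 116 CPM at 4wk STZ (log2 0.67, adjusted p = 0.232). Cd44, the hyaluronan receptor, stood at 27.1 ± 3.58 and 47.4 ± 10.3 CPM (log2 0.81, adjusted p = 0.275). Other actin genes went the other way: Actg1, gamma-actin, stood at 694 ± 89.5 and 513 ± 36.7 CPM (log2 -0.44, adjusted p = 0.316) and was called lower at 8 weeks (log2 -0.84, adjusted p = 0.00614). Fmnl1, a formin that elongates filaments, stood at 148 ± 17.2 and 99.3 ± 7.76 CPM (log2 -0.58, adjusted p = 0.239). Over 32 actin genes 3 were higher and 3 lower at an unadjusted p below 0.05.

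The list of protease inhibitors had 14 tested members, of which 1 was higher (Serping1, above) and 1 lower at an unadjusted p below 0.05. Serpine2, protease nexin-1, which inhibits thrombin and plasminogen activators and is abundant in microglia (ENSMUSG00000026249, chr1:79794197-79861180, minus strand, GRCm38), stood at 1386, 1272 and 1367 CPM in Control and at 949, 798 and 927 CPM at 4wk STZ. The lowest Control library lay well above the highest diabetic one (log2 -0.59, SE 0.0934, adjusted p = 0.196), and at 8 weeks it was called (log2 -0.77, adjusted p = 0.00216). Htra3, a secreted serine protease, stood at 95.4, 67.2 and 106 CPM in Control and at 189, 169 and 195 CPM at 4wk STZ. Its groups did not overlap (log2 1.04, SE 0.178, adjusted p = 0.232), and it was called higher at 8 weeks (log2 0.80, adjusted p = 0.0343). Ctse, the aspartic protease cathepsin E, stood at 10.3 ± 2.59 and 27.3 ± 3.32 CPM (log2 1.40, adjusted p = 0.239), with a mean of 15.3 CPM at 8wk STZ. Cast, calpastatin, the inhibitor of calpains, stood at 35.8 ± 4.39 and 57.4 ± 0.728 CPM (log2 0.68, adjusted p = 0.241). Among enzymes of other kinds, Cyp4f18, which inactivates the leukocyte attractant leukotriene B4, stood at 56.4, 77.8 and 78.3 CPM in Control and at 157, 146 and 121 CPM at 4wk STZ (log2 1.00, adjusted p = 0.241).

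Lysosomal genes leaned to the lower side. Of 32 tested, 0 were higher and 10 lower at an unadjusted p below 0.05, against 4.97% lower over all genes, and the median was -0.14. Its range was -0.20 to -0.12 over every alternative processing run and every left-out library. Beside Cd68 they include subunits and accessory proteins of the proton pump that acidifies the lysosome: Atp6ap1 (1140.1 ± 98.2 and 917 ± 39.8 CPM, log2 -0.31), Atp6ap2 (255 ± 7.53 and 205 ± 18.9 CPM, log2 -0.32) and Tcirg1 (167 ± 11.1 and 136 ± 8.37 CPM, log2 -0.30). Their adjusted p-values were 0.278, 0.315 and 0.335. Atp6ap1 and Atp6ap2 were called lower at 8 weeks (log2 -0.59 and -0.40), while Tcirg1 was called higher (log2 0.45, adjusted p = 0.0226), so the subunits parted at the later time. Further near-threshold genes of the organelle outside that list were Idua, the iduronidase that degrades glycosaminoglycans, with 95.5 ± 7.47 and 60.7 ± 8.28 CPM (log2 -0.65, adjusted p = 0.239), Slc38a9, the lysosomal arginine sensor upstream of mTORC1, with 64.0, 53.1 and 70.7 CPM in Control and 35.1, 41.2 and 30.5 CPM at 4wk STZ (log2 -0.81, adjusted p = 0.239), and Slc29a3, a lysosomal nucleoside transporter, with 626 ± 73.9 and 463 ± 13.3 CPM (log2 -0.43, adjusted p = 0.252).

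Of 24 genes of the unfolded protein and integrated stress response 1 was higher and 5 lower at an unadjusted p below 0.05 (4.78% and 4.97% over all genes). The median was -0.23, and it lay between -0.31 and -0.09 with libraries left out, the last without Control replicate 2. Calr, an endoplasmic reticulum chaperone, stood at 449, 613 and 464 CPM in Control and 416, 378 and 393 CPM at 4wk STZ (log2 -0.36, adjusted p = 0.379), and Sdf2l1, another, at 224, 398 and 240.2 CPM and 182, 165 and 215 CPM (log2 -0.62, adjusted p = 0.378). Control replicate 2 is the high library for both, and without it the log2 differences were -0.21 and -0.31. Of 28 genes of cholesterol and lipid handling 2 were higher and 5 lower, with the same shares over all genes. Abca1, which exports cholesterol, stood at 43.8 ± 5.67 and 22.8 ± 10.5 CPM (log2 -0.94, adjusted p = 0.35). In the list of glycolysis and glucose transport 0 of 27 genes were higher and 1 lower, Pgam1, phosphoglycerate mutase, with 77.9 ± 12.1 and 55.8 ± 4.53 CPM (log2 -0.48, adjusted p = 0.315). Slc2a8, a glucose transporter outside that list, stood at 66.5, 75.8 and 92.8 CPM in Control and at 49.7, 50.6 and 43.4 CPM at 4wk STZ (log2 -0.71, adjusted p = 0.241). Nadsyn1, which makes the cofactor NAD, stood at 6.77, 10.9 and 6.25 CPM in Control and 1.39, 2.24 and 1.80 CPM at 4wk STZ (log2 -2.14, adjusted p = 0.239). None of the 23 tested genes of insulin and IGF signalling had an unadjusted p below 0.05, and their median was 0.06.

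**Figure D3:**
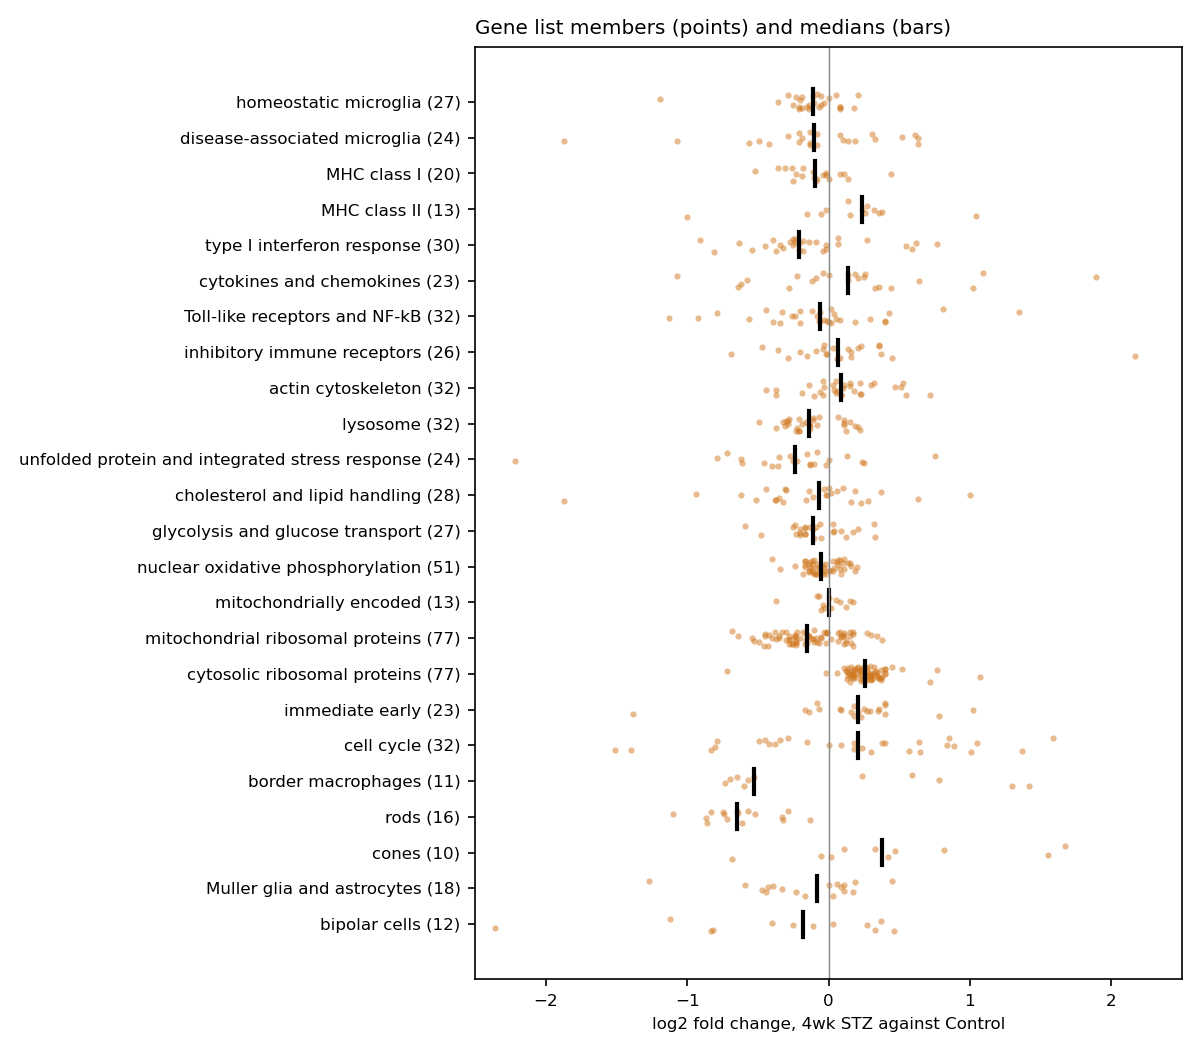
Each point is a tested member of 1 of 24 gene lists (tested members in brackets), the x axis gives its log2 fold change at 4wk STZ against Control, and the black bar is the list's median. 6 members lie outside the plotted range of 2.5 in either direction, the rods lie to the left of 0 and nearly all cytosolic ribosomal proteins to the right.

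Cytosolic ribosomal protein genes, the protein part of the ribosomes that translate nuclear messages, stood higher as a group. Of 77 tested, 26 were higher and 0 lower at an unadjusted p below 0.05, against 4.78% higher over all genes, and 75 of the 77 had a log2 fold change above 0. The median was 0.26, and it lay between 0.15 and 0.33 over every alternative scaling, tool, filter and left-out library. Rps19 stood at 719, 912 and 807 CPM in Control and at 956, 1228 and 1142 CPM at 4wk STZ (log2 0.45, adjusted p = 0.316). Rpl3 stood at 1674 ± 136 and 2159.7 ± 213 CPM (log2 0.37, adjusted p = 0.349), and Rpl14 at 703 ± 55.6 and 926 ± 119 CPM (log2 0.40, adjusted p = 0.344). The groups did not overlap for these 3 genes. As a share of all reads the ribosomal protein genes held 3.21%, 3.69% and 3.06% in Control and 3.67%, 4.58% and 3.84% at 4wk STZ, so the lowest diabetic library lay just under the highest Control library (exact two-sided permutation p = 0.200, smallest possible 0.10). At 8wk STZ the share was 3.44% ± 0.312 (SD, n = 4) and the list's median -0.05. Ribosomal protein genes have many near-identical pseudogenes that can share their reads. Rpl22l1, a paralog of Rpl22, stood at 14.9 ± 1.38 and 25.5 ± 3.89 CPM (log2 0.77, adjusted p = 0.252).

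Of 77 genes of the mitochondrial ribosome, 0 were higher and 3 lower at an unadjusted p below 0.05, against 4.97% lower over all genes, and 55 had a log2 fold change below 0 (median -0.15). Mrps24 stood at 22.9, 24.1 and 26.5 CPM in Control and at 17.7, 15.2 and 14.2 CPM at 4wk STZ, and was back at 25.8 ± 4.49 CPM at 8wk STZ. It overlaps Urgcp on the same strand over 15.4% of its exonic sequence. Urgcp had means of 65.1 CPM in Control and 52.0 CPM at 4wk STZ (log2 -0.32), and its part in the Mrps24 difference was not tested. The 13 transcripts made by the mitochondrial genome held 1.56%, 1.41% and 1.53% of reads in Control and 1.29%, 1.57% and 1.84% at 4wk STZ (exact two-sided permutation p = 0.700), with a median log2 fold change of 0.00. By 8 weeks they were at 0.830% ± 0.128 and 9 of the 13 were called lower, while 2.37% of all tested genes were called in either direction. mt-Co1, a subunit of cytochrome oxidase, stood at 3604 ± 402, 4055 ± 516 and 2049 ± 292 CPM at the 3 stages, and its difference between 8wk STZ and 4wk STZ was called (log2 -0.98, adjusted p = 0.0164). Apool, a protein of the inner membrane folds of mitochondria, stood at 7.19 ± 1.22 and 16.8 ± 2.15 CPM at 4wk STZ (log2 1.23, adjusted p = 0.239).

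In the nucleus, genes of DNA repair, the cell cycle and transcription appeared on both sides. Rad50, part of the complex that senses DNA double-strand breaks, stood at 30.0, 30.3 and 25.7 CPM in Control and at 48.7, 39.7 and 44.4 CPM at 4wk STZ (log2 0.63, adjusted p = 0.247), and was called higher at 8 weeks (log2 0.66, adjusted p = 0.0241). Chek2, the checkpoint kinase that acts after such breaks, stood at 3.98 ± 0.538 and 9.96 ± 3.33 CPM (log2 1.33, adjusted p = 0.252) and was also called at 8 weeks (log2 1.36, adjusted p = 0.0394). Of 32 cell cycle genes 5 were higher and 2 lower at an unadjusted p below 0.05 (4.78% and 4.97% over all genes). The higher ones are rarely counted: Aurka, a mitotic kinase, stood at 1.02, 0.248 and 0 CPM in Control and at 6.48, 3.11 and 5.85 CPM at 4wk STZ (log2 3.61, adjusted p = 0.314). Fbxo5, an inhibitor of the anaphase-promoting complex, had 1.94 ± 0.363 and 5.03 ± 2.41 CPM, and its activator Fzr1 stood at 56.0, 61.4 and 57.6 CPM in Control and at 42.1, 39.1 and 38.1 CPM at 4wk STZ. The Fzr1 groups were tight and apart (log2 -0.55, SE 0.103, adjusted p = 0.239). The proliferation marker Mki67 stood at 1.00 ± 0.914 and 1.81 ± 0.326 CPM with overlapping libraries. The list's median of 0.21 became -0.02 without 4wk STZ replicate 1, -0.00 without Control replicate 2 and 0.56 without Control replicate 3 and 4wk STZ replicate 3 together.

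Taf9b, a subunit of TFIID, stood at 23.8, 21.8 and 26.3 CPM in Control and at 9.84, 11.4 and 12.6 CPM at 4wk STZ (log2 -1.09, adjusted p = 0.232), and was called lower at 8 weeks (log2 -0.83, adjusted p = 0.0332). Tbpl1, a relative of the TATA-binding protein, stood at 50.6 ± 3.19 and 81.3 ± 12.3 CPM (log2 0.69, adjusted p = 0.239). Sepsecs, which makes the transfer RNA for selenocysteine, was higher, at 6.16 ± 2.57 and 18.9 ± 7.01 CPM (log2 1.62, adjusted p = 0.252), and so was Mettl6, a transfer RNA methyltransferase, at 16.7 ± 0.362 and 28.7 ± 5.66 CPM (log2 0.78, adjusted p = 0.252). Of 17 clock genes 1 was higher and 2 lower at an unadjusted p below 0.05, all of them repressors of the clock: Nr1d1 stood at 28.9, 25.7 and 20.7 CPM in Control and at 13.9, 12.8 and 11.8 CPM at 4wk STZ (log2 -0.97, adjusted p = 0.316), Cry1 at 10.5 ± 2.91 and 5.06 ± 1.32 CPM, and Bhlhe41, which is abundant in these cells, at 1065 ± 155 and 1487 ± 273 CPM (log2 0.48, adjusted p = 0.318). The time of day of dissection is not given in the sources used here. Of 12 glucocorticoid-responsive genes 3 were higher and 1 lower (4.78% and 4.97% over all genes). Tsc22d3, an anti-inflammatory target of the glucocorticoid receptor, stood at 212, 233 and 246 CPM in Control and at 405, 346 and 280.4 CPM at 4wk STZ (log2 0.58, adjusted p = 0.278) and was called higher at 8 weeks (log2 0.63, adjusted p = 0.0462).

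Signalling and transport genes near the threshold were spread over many functions. Mtmr6, a phosphatase of endosomal phosphoinositides, stood at 142, 122 and 114 CPM in Control and at 194, 215 and 201 CPM at 4wk STZ (log2 0.69, adjusted p = 0.232) and was called higher at 8 weeks (log2 0.53, adjusted p = 0.0332). Cacfd1, related to the Flower protein of synaptic vesicles, was lower, with 30.6, 16.7 and 37.6 CPM in Control and 7.16, 7.48 and 10.2 CPM at 4wk STZ. Its log2 difference was -1.78 (SE 0.28, adjusted p = 0.196), and it was the single gene called when Control replicate 2 was left out (adjusted p = 0.0453). Scamp5, a protein of secretory vesicles, stood at 101 ± 11.1 and 62.9 ± 6.87 CPM (log2 -0.68, adjusted p = 0.232). Adora1, the A1 adenosine receptor, stood at 18.1 ± 4.23 and 41.4 ± 4.16 CPM (log2 1.19, adjusted p = 0.253) and was called higher at 8 weeks (log2 1.32, adjusted p = 0.0356). Wwox, an oxidoreductase, stood at 32.7 ± 1.11 and 18.4 ± 2.65 CPM (log2 -0.83, adjusted p = 0.241) and was called lower at 8 weeks (log2 -1.02, adjusted p = 0.00978). In the TGF-beta list of 22 genes 1 was higher and 2 lower. Skil, a repressor of that pathway, had 265 ± 15.8 and 369 ± 48.2 CPM (log2 0.48, adjusted p = 0.278), and Nrros, which holds latent TGF-beta on microglia, had 298, 325 and 302 CPM in Control and 243, 226 and 269.7 CPM at 4wk STZ (log2 -0.32, adjusted p = 0.333). Etv5, an ETS-family transcription factor, stood at 342, 314 and 295 CPM in Control and 205, 232 and 259 CPM at 4wk STZ (log2 -0.45, adjusted p = 0.252). The remaining lists, among them autophagy, heat shock, antioxidant genes, iron, ion channels, splicing factors and nuclear genes of oxidative phosphorylation, had at most 4 members in either direction at an unadjusted p below 0.05, as had the endothelial, monocyte, T cell and dendritic cell lists. Some of these lists are short, and over all genes the share in either direction was 9.75%: of 14 iron genes 3 were higher and 1 lower, and of 19 genes of TAM receptors and clearance of dead cells 2 were higher and 4 lower.

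Rod photoreceptor transcripts, which are not microglial, differed in 1 direction as a group. Of 16 tested rod genes 0 were higher and 12 lower at an unadjusted p below 0.05, against 4.78% and 4.97% over all genes. All 16 had a log2 fold change below 0, and the median was -0.64 (-0.78 to -0.48 over every alternative run). Rom1, a structural protein of the rod disc (ENSMUSG00000071648, chr19:8927391-8929356, minus strand, GRCm38), stood at 564, 671 and 548 CPM in Control and at 385, 291 and 389.7 CPM at 4wk STZ. No library overlapped, and the log2 difference was -0.74 (SE 0.14, adjusted p = 0.239). Nrl, the transcription factor that sets rod identity, stood at 48.0 ± 5.89 and 22.3 ± 6.24 CPM (log2 -1.10, adjusted p = 0.239), and Gnat1, rod transducin, at 1914 ± 286 and 1139.5 ± 196 CPM (log2 -0.75, adjusted p = 0.252). Near-threshold genes outside the list that rods are known to make were lower too: Reep6 (log2 -0.93), Slc17a7, the glutamate transporter of synaptic vesicles (log2 -1.11), and Cabp4, a synaptic calcium sensor (log2 -1.17), each with an adjusted p of 0.241.

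The 16 rod genes held 1.31%, 1.44% and 1.32% of reads in Control, 0.947%, 0.723% and 1.03% at 4wk STZ and 0.502% to 0.658% at 8wk STZ. The 3 groups did not overlap, and the Control and 4wk STZ shares gave an exact two-sided permutation p of 0.10, the smallest that 3 against 3 libraries allow. At 8 weeks 16 of the 16 rod genes were called lower than Control, while 2.37% of all tested genes were called in either direction. Rom1 and Gnat1 were also called lower than at 4 weeks, with log2 differences of -0.89 and -0.80 (adjusted p = 0.0181 and 0.0396 in edgeR's quasi-likelihood test). Lists of other retinal cells were counted in the same way. The 10 tested cone genes had a median of 0.37 (0.01 to 0.55 with libraries left out, the lowest without Control replicate 2) with 0 at an unadjusted p below 0.05 in either direction, the 12 bipolar genes -0.18 with 0, and the 18 Müller glia and astrocyte genes -0.09 with 0 higher and 1 lower, Slc1a3, the glial glutamate transporter (91.8 ± 12.8 and 66.2 ± 6.19 CPM). The bipolar median turned to 0.19 without Control replicate 3 and to 0.31 without it and 4wk STZ replicate 3, and the Müller glia median lay between -0.24 and 0.14 with libraries left out. Of 19 amacrine, horizontal and ganglion cell genes 0 were higher and 1 lower, Calb2, a calcium-binding protein of such neurons (6.38 ± 1.58 and 2.72 ± 0.389 CPM, log2 -1.23, adjusted p = 0.316), and the median was 0.29. Of 7 tested genes of pericytes, smooth muscle and fibroblasts 0 were higher and 2 lower, Vtn and Pdgfrb, with a median of -0.99. Vtn is also made by rods, and Pdgfrb had an unadjusted p of 0.0733 in edgeR's quasi-likelihood test without Control replicate 1. Rod transcripts moved with the microglial differences above, in the same libraries, and their part in those was not tested.

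**Figure D4:**
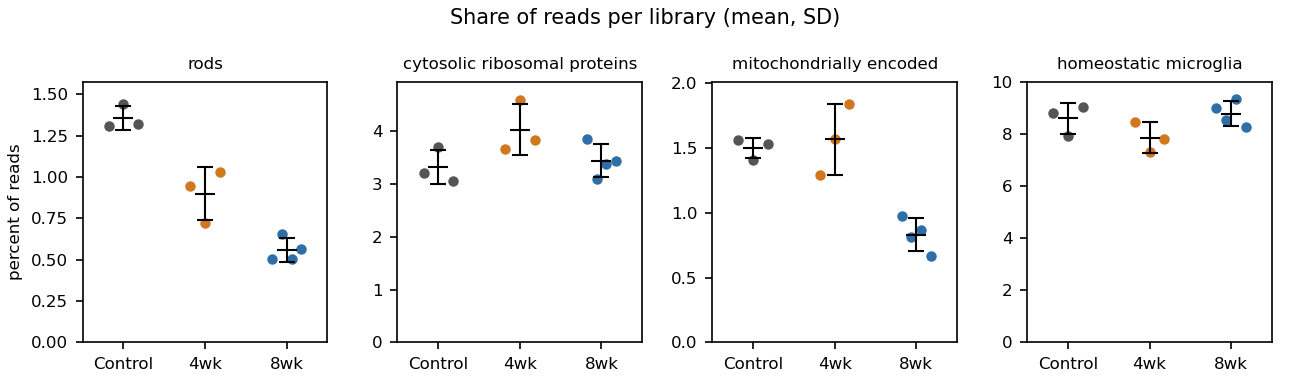
Percent of each library's reads (y axis, from 0) taken by 4 gene lists, with mean and SD of Control (n = 3), 4wk STZ (n = 3) and 8wk STZ (n = 4). The rod share goes from 1.36% in Control to 0.901% at 4wk STZ and 0.558% at 8wk STZ, the mitochondrially encoded share is lower at 8wk STZ alone, and the ribosomal protein share is highest at 4wk STZ with overlapping libraries.

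Some rarely counted genes differed by large ratios of reads. Recql4, a DNA helicase, had 0 reads in the 3 Control libraries and 147 at 4wk STZ, at least 54.1-fold higher with 3 reads in the whole group taken as the floor, and stood at 1.47, 1.20 and 0.560 CPM. Itm2a, a membrane protein, had 0 and 420 reads, at least 155-fold higher, with 3.11, 1.33 and 6.41 CPM at 4wk STZ. Prom2, a relative of the stem cell marker prominin, had 81 and 629 reads, with 0.260, 0.698 and 0.740 CPM in Control and 4.88, 3.77 and 6.59 CPM at 4wk STZ. In the other direction, Tnni3, cardiac troponin I, had 108 reads in Control and 0 at 4wk STZ, at least 32.6-fold lower, though Control replicate 1 held only 0.0649 CPM against 0.900 and 1.27 CPM in the others. Tgm1, a transglutaminase, had 247 and 2 reads, with 1.62 to 1.95 CPM in Control. Kifc5b, a kinesin with a close paralog that can share its reads, had 213 and 14 reads. Their adjusted p-values lay between 0.232 and 0.241 in edgeR's quasi-likelihood test. Counting intervals cover counting error only, and libraries made by amplifying little RNA can lose or multiply rare molecules.

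The later libraries show how far each early difference lasted. Both comparisons use the same 3 Control libraries, so a high or low Control mean moves both, and the following counts describe the genes and test nothing. A gene is said to be back near Control where its fitted log2 difference at 8wk STZ lay within 0.25 of 0, and held where it kept its sign and at least 0.5 of its size. Of the 518 near-threshold genes, 102 (19.7%) were back near Control, 321 (62%) had held, 80 (15.4%) lay between and 15 (2.9%) were past Control on the other side. Over all 18957 genes, 7325 (38.6%) lay within 0.25 of Control at 8wk STZ. Of the genes lower at 4 weeks 63 of 276 (22.8%) were back, and of those higher 39 of 242 (16.1%), and the difference between these shares was not tested. Held differences numbered 141 of 276 (51.1%) and 180 of 242 (74.4%). At 8wk STZ 107 of the 518 were called against Control, and 2.37% of all tested genes were. The 518 were chosen with the same Control libraries, so nothing is read from that count.

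For 26 of the 518 genes the difference between 8wk STZ and 4wk STZ was called in edgeR's quasi-likelihood test (174 of all genes, 0.918%). The 518 were chosen with the same 4wk STZ libraries, so nothing is read from that count either. A return is described here without an independent test. Of the 26 genes, 8 were back near Control: Fzr1, E2f4, Nol8, Nadsyn1, Kifc5b, Pip4p1, Rp2 and Nek7. Rp2, which helps traffic lipid-modified proteins and is mutated in a form of retinitis pigmentosa, stood at 108, 90.1 and 106 CPM in Control, 142, 171 and 177 CPM at 4wk STZ and 108, 116, 82.1 and 94.0 CPM at 8wk STZ. Its 4 later libraries spanned the Control values, all below the 4wk STZ libraries, and the log2 difference of 8wk STZ from 4wk STZ was -0.71 (adjusted p = 0.0405). Fzr1 returned from 39.8 ± 2.09 to 64.8 ± 2.01 CPM (log2 0.70, adjusted p = 0.0166). E2f4, a transcriptional repressor of cell cycle genes, went from 47.7 ± 5.70 CPM in Control to 31.3 ± 2.70 and 51.5 ± 5.13 CPM (log2 0.72 from 4wk to 8wk STZ, adjusted p = 0.0377). Nol8, a nucleolar protein, stood at 20.0 ± 1.52, 11.8 ± 1.45 and 21.5 ± 2.89 CPM (log2 0.86, adjusted p = 0.048). Pip4p1, a phosphoinositide phosphatase of lysosomes, stood at 122 ± 18.7, 89.5 ± 5.40 and 142 ± 13.3 CPM (log2 0.67, adjusted p = 0.0339). Nadsyn1 returned to 8.76, 8.38, 3.70 and 7.91 CPM, 3 of the 4 inside the Control range (log2 1.99, adjusted p = 0.0413).

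A few genes went past the Control level. Nol9, a kinase needed to process ribosomal RNA, stood at 14.2, 14.9 and 17.2 CPM in Control, 6.87, 7.42 and 9.73 CPM at 4wk STZ and 17.8, 24.5, 30.5 and 25.7 CPM at 8wk STZ. Each later library lay above every Control library, although the 8wk STZ difference from Control was not called (log2 0.67, adjusted p = 0.141), while that from 4wk STZ was (log2 1.62, adjusted p = 0.0166). Ulk3, a kinase related to the autophagy starter ULK1, showed the same course, with 12.7, 13.4 and 17.2 CPM in Control, 9.95, 9.20 and 7.65 CPM at 4wk STZ and 24.0, 22.9, 19.5 and 21.5 CPM at 8wk STZ (log2 1.30 from 4wk to 8wk STZ, adjusted p = 0.018). Tcirg1 was the member of the lysosomal list on this course, at 167 ± 11.1, 136 ± 8.37 and 228 ± 10.7 CPM (log2 0.74, adjusted p = 0.00715).

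Other called differences between the times went further in the early direction. Arglu1, a splicing regulator, stood at 90.2 ± 3.62, 122 ± 12.6 and 227 ± 23.9 CPM (log2 0.90 from 4wk to 8wk STZ, adjusted p = 0.0111). Atp1b2, a subunit of the sodium pump of glia and photoreceptors, stood at 219 ± 11.9, 156 ± 14.9 and 73.0 ± 10.6 CPM (log2 -1.09, adjusted p = 0.00557), Adgrg1, the adhesion receptor GPR56, at 1282 ± 80.5, 1041 ± 50.2 and 791 ± 40.0 CPM (log2 -0.40, adjusted p = 0.0396), and Cngb1, a subunit of the rod light-gated channel, at 108 ± 14.7, 68.4 ± 10.1 and 39.4 ± 3.43 CPM (log2 -0.80, adjusted p = 0.0316). Vtn, vitronectin, which rods make, followed with 145 ± 14.9, 95.3 ± 18.4 and 48.8 ± 5.56 CPM (log2 -0.96, adjusted p = 0.0209). Of the genes in these 3 paragraphs E2f4, Nol8, Pip4p1, Nol9, Ulk3, Arglu1, Atp1b2, Adgrg1 and Cngb1 were chosen after their values were seen, as were Nfkb2, Chek2, P2ry12, Cx3cr1, Trem2, Apoe, Itgax, Tnf and Mki67 above.

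**Figure D5:**
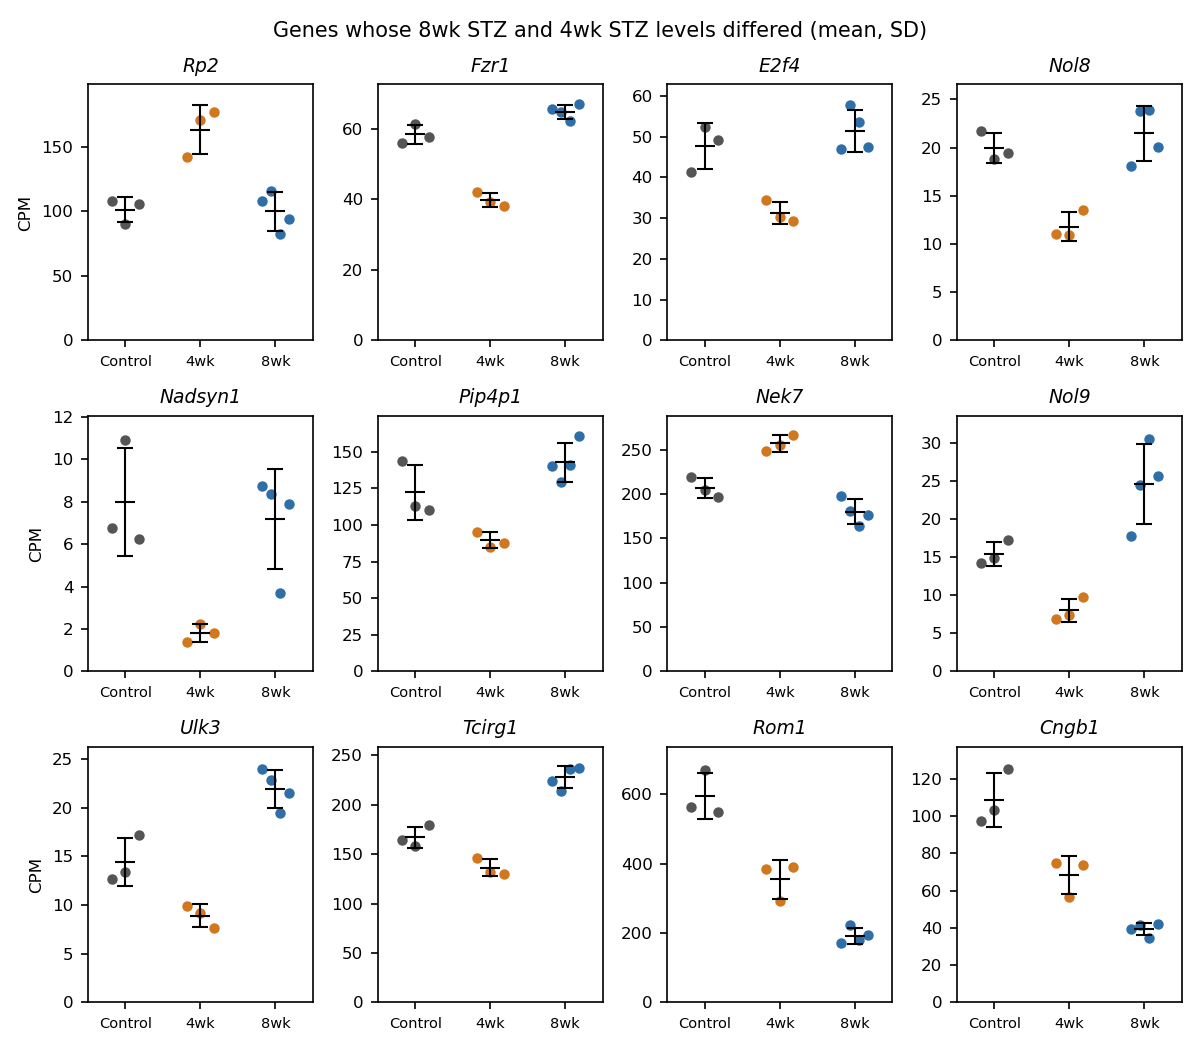
CPM (y axis, from 0) of 12 near-threshold genes whose 8wk STZ and 4wk STZ levels differed, in each library, with mean and SD of Control (n = 3), 4wk STZ (n = 3) and 8wk STZ (n = 4). Rp2, Fzr1, E2f4, Nol8, Nadsyn1, Pip4p1 and Nek7 were back near Control, Nol9, Ulk3 and Tcirg1 were past it, and Rom1 and Cngb1 went further down.

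Among the genes nearest the threshold at a good level, other returns were not called between the times: Rap2b, a small GTPase, stood at 74.9 ± 6.54, 113 ± 16.7 and 80.3 ± 5.88 CPM, Nek6, a mitotic kinase, at 148 ± 7.96, 108 ± 9.10 and 129.6 ± 6.97 CPM, and Bhlhe41 came back to 1095 ± 89.3 CPM. By contrast Fcrls, Clec7a, Serpine2, Capg, Htra3, Tspan32, Cd68, Taf9b and the rod genes all held. Whether reads were counted by strand is not given in the sources used here. If they were not, genes that overlap another on the opposite strand can share its reads. Some genes named above have such an overlap: Rap2b with B430305J03Rik over 54.5% of its exonic sequence, H2-T22 with A930015D03Rik over 29.4%, Adora1 with Mybph over 20.1%, Pip4p1 with Apex1 over 19.5%, Bhlhe41 with Gm43909 over 19.0% and Csf1r with Hmgxb3 over 15.1%.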

How the data were processed

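RNA of sorted retinal cells from 10 Cx3cr1GFP/+ mice was sequenced (3 Control, 3 4wk STZ and 4 8wk STZ libraries). Per the labels' protocols, libraries were made with a kit for very small amounts of RNA that amplifies whole transcripts, and whether reads were counted by strand is not given in the sources used here. The submitters' processing notes name STAR, Subread featureCounts, Salmon, edgeR, limma and build GRCm38, with no role given. The values used are the raw read counts per gene that the authors deposited. The authors also deposited their own per-gene comparison: log2 fold changes, mean log2 CPM, a likelihood ratio score, p-values and FDR. Of it, fold changes and FDR are printed, and only where named.

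The deposited count table has 55774 entries, and 287 repeats were dropped. Genes were kept by edgeR's filterByExpr with the groups (18957 genes), scaled by TMM, and tested with edgeR 4.0.16 (R 4.3.3), glmQLFit robust and glmQLFTest, with 1 mean per group over all 10 libraries and no covariate. P-values were adjusted by Benjamini-Hochberg over all tested genes, and genes with an adjusted p below 0.05 are called. CPM were computed after scaling. Fitted folds use edgeR's default prior count. A prior count of 2 was used only for the log2 CPM behind the principal components and the correlations between libraries. limma 3.58.1 (voom), DESeq2 1.42.0, other scalings and filters, left-out libraries and a replicate block were alternatives. The fit was tested on simulated counts. Read shares were compared by exact two-sided permutation, which for 3 against 3 cannot go below 0.10.

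Genes were named by rule: the 20 smallest p in each direction without overlap among genes whose mean log2 CPM was 2 or more, 5 in each direction below that level, and up to 4 members per gene list, leaving out predicted, pseudogene and sex-linked genes from the first parts. Members, lists and rules were chosen with earlier results of these data known.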

Additional observations from a re-analysis of the deposited data

Results flagged for a closer look

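In groups of 4, a library standing far from the other 3 was looked for in the 8wk STZ levels of the named genes, by the gap to its neighbour as a share of the group's range. Chance flags about 1 in 20 groups, and of the 122 genes looked at 7 had such a library, so their number is near what chance gives. The lowest was 8wk STZ replicate 4 for Rap2b, with a gap of 0.834 of the range. It was replicate 2 for Slc2a8, with 0.928, and replicate 3 for Nadsyn1, with 0.832. The highest was 8wk STZ replicate 2 for Atp6ap2, with 0.887, replicate 1 for Nek6, with 0.920, and replicate 4 for Tsc22d3 and Adora1, with 0.829 and 0.875.

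For other genes the change from Control differed between the times, as the called difference of 8wk STZ from 4wk STZ in edgeR's quasi-likelihood test. The near-threshold genes among them were chosen with the same 4wk STZ libraries. Later levels were higher for the cell cycle regulators Fzr1 and E2f4 (log2 0.70 and 0.72), the nucleolar genes Nol8 and Nol9 (0.86 and 1.62), the phosphatase Pip4p1 (0.67), the proton pump subunit Tcirg1 (0.74), the kinase Ulk3 (1.30), Nadsyn1 (1.99), the splicing regulator Arglu1 (0.90) and the rarely counted Kifc5b and Tnni3 (3.61 and 9.48, the last a fitted value against a group at 0). Later levels were lower for Rp2 (-0.71), Nek7 (-0.52), mt-Co1 (-0.98), Adgrg1 (-0.40), Atp1b2 (-1.09), Vtn (-0.96) and the rod genes Rom1, Gnat1 and Cngb1 (-0.89, -0.80 and -0.80).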

How the results depend on the processing

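No gene was called at 4wk STZ under the other scalings, limma-voom, the stricter filter, the 6-library fit or the replicate block. Calls numbered 299 with DESeq2, 244 with edgeR's likelihood ratio test and 12 with no filter (among them Cacfd1, Fcrls, Serping1, Serpine2, Htra3, Itm2a, Gnat1, Reep6, Btla, Capg and Rom1), and 0 to 1 with 1 library left out, the 1 being without Control replicate 2. Near-threshold genes numbered 453 higher and 488 lower with DESeq2, 427 and 446 with the likelihood ratio test and 126 and 151 with the 6 libraries alone, and with 1 library left out 183 to 299 higher and 231 to 333 lower. Of them, 200, 163 and, with 1 library left out, 58 (without Control replicate 3) to 177 (without 4wk STZ replicate 1) were back near Control. The 6-library fit has no 8wk STZ value. Back within 0.15 were 65, and from genes at an unadjusted p below 0.05 or an adjusted p below 0.25 there were 491 and 6. For none of the 518 genes did an alternative turn the sign. Among abundant genes far from the threshold, the log2 difference of P2ry12 (-0.03) was 0.05 without 4wk STZ replicate 2, 0.04 without Control replicate 1 and 0.03 without Control replicate 3, with a range of -0.17 to 0.05 over single libraries left out. That of Apoe (0.19) was -0.05 without 4wk STZ replicate 2 and -0.10 without Control replicate 2 (range -0.10 to 0.44), and that of Itgax (-0.13) was 0.04 in limma-voom and 0.32 without Control replicate 1 (range -0.44 to 0.32). The causes were not tested. Of list medians, 1093 stayed within the spread and 103 moved.

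With the replicate block 150 genes stood higher and 184 lower near the threshold, 57 were back near Control and 0 were called. The deviations of same-numbered Control and 4wk STZ libraries from their group means had correlations of 0.017, 0.002 and 0.018. Pairs with different numbers gave -0.028 to 0.013. Control replicates 1 and 3 correlated best with their own number, and Control replicate 2 with 4wk STZ replicate 3 (0.01). Correlations this near 0 do not decide whether libraries of equal number were handled together, and the sample labels give only the number.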
